A study of Mus musculus with 20 samples.

Results

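The genotype-by-diet interaction asks, gene by gene, whether the vitamin A deficient (VAD) diet changed a transcript by a different amount in *Stra6*-/- mice than in wild-type (WT) mice. For each gene it is the diet effect in the libraries labelled *Stra6*-/- (VAD minus vitamin A sufficient, VAS) minus the diet effect in WT, on the log2 scale. A positive value means that the VAD diet came with a rise, or a smaller fall, in the libraries labelled *Stra6*-/- relative to WT. All 20 libraries of the series enter it, 5 in each of 4 groups, and 18807 of the 24411 genes in the table were tested.

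The groups are VAS WT, VAD WT, VAS *Stra6*-/- and VAD *Stra6*-/-, all labelled with the strain C57BL/6 (C57BL/6J for the *Stra6*-/- mice in the study's methods). From weaning the mice ate a diet with 4 IU (VAS) or 0 IU (VAD) of vitamin A per gram for 12 weeks, after a common period on standard chow with their dams. Each library holds RNA of the RPE-choroid, the retinal pigment epithelium with the vascular layer beneath it. It came from 2 pooled eyecups after the front of the eye and the neural retina had been removed. By the study's account both eyecups of a library came from a single mouse. The WT mice were purchased and the *Stra6*-/- mice were bred in house, so genotype and origin cannot be told apart.

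STRA6 is a membrane receptor that takes up retinol from its carrier in blood, retinol-binding protein, and the RPE carries it on the side that faces the choroid. Inside the RPE the retinol is esterified by LRAT and isomerized by RPE65, and retinol dehydrogenases then make the chromophore of the visual pigments. Retinoic acid, the other product of retinol, binds nuclear receptors that regulate transcription, and in epithelia of the cornea, conjunctiva and skin it restrains keratinization.

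*Stra6* was checked first, in every library, because it is the targeted gene (chr9:58063788-58153996, GRCm38). Its normalized values (read counts divided by a size factor per library) were 2661, 2742, 2414, 2449 and 2689 in VAS WT and 693, 1340.1, 697, 1529 and 669 in VAD WT. They were 564, 599, 648, 642 and 694 in VAS *Stra6*-/- and 2126, 1973, 2116, 2393 and 2208 in the libraries labelled VAD *Stra6*-/-. *Stra6* was thus low in all 5 VAS *Stra6*-/- libraries, whereas the 5 libraries labelled VAD *Stra6*-/- lay above every VAD WT library, against their label. The interaction for *Stra6* was 3.27 (standard error 0.25, adjusted p = 6.76e-10, limma), from a fall by 1.49 on the log2 scale in WT and a rise of 1.78 in the libraries labelled *Stra6*-/-. Gene-level values can include reads from exons outside the deletion, whose position is not given in the sources used here. Since this check went against the label, the group is called the libraries labelled VAD *Stra6*-/- below, and each direction drawn from it is that of those libraries. VAD WT replicates 1, 3 and 5 (693, 697 and 669) lay at the level of VAS *Stra6*-/- (564 to 694) and below every VAS WT library. The check thus did not bear out their WT label either, and the reason was not tested. WT is likewise used below as a label.

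Sex-linked transcripts and several tissues also differed between groups, and both are given here because every interaction uses these libraries. *Xist*, the RNA that coats the inactive X chromosome of females, was at 7.69 to 38.4 in VAS WT, 15320.2 to 18052 in VAS *Stra6*-/- and 3569.8 to 4279.6 in the libraries labelled VAD *Stra6*-/-. Its VAD WT values were 174, 10912, 194, 11767 and 234 in replicates 1 to 5, with replicates 2 and 4 high. The Y-linked *Ddx3y* was at 981 to 1193 in VAS WT, 1041, 75.2, 1064, 80.5 and 1133 in VAD WT, at most 1.02 in VAS *Stra6*-/- and 741 to 969.7 in the libraries labelled VAD *Stra6*-/-. VAS WT thus carried male-type and VAS *Stra6*-/- female-type transcripts, while all 5 libraries labelled VAD *Stra6*-/- carried both *Xist* and *Ddx3y*. Sex and genotype can therefore not be told apart on the VAS diet, and the part of sex in the interactions was not tested. By the study's account each library holds the eyecups of a single mouse. Why the libraries labelled VAD *Stra6*-/- carried both transcripts was not tested. VAD WT replicates 2 and 4 also stood apart in their counts, with a chi-square per gene of 153 to 194 against replicates 1, 3 and 5, compared with 3.35 to 16.5 among all other pairs of libraries of a group. The plot of list medians gives 39 gene lists with and without them. Values without them, or list sums in VAD WT, are given beside many but not all lists that moved with them. Depth was 13331903 to 21878614 reads per library, and no pair of libraries agreed within counting noise.

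**Figure D1:**
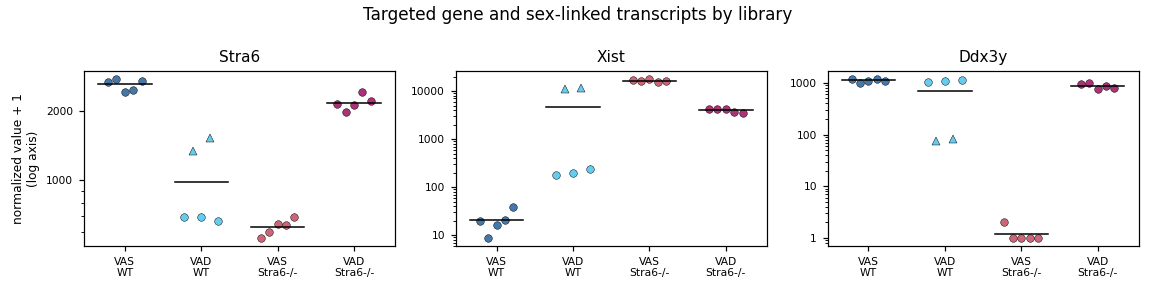
Normalized value plus 1 (log axis) of *Stra6*, *Xist* and *Ddx3y* in each of the 20 libraries, by group; points are libraries, triangles are VAD WT replicates 2 and 4, and bars are group means. *Stra6* was at 1973 to 2393 in the libraries labelled VAD *Stra6*-/- and at 564 to 694 in VAS *Stra6*-/-.

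An interaction was called for 8319 of 18807 genes (44.2%) at an adjusted p under 0.05, with 3663 higher (19.5%) and 4656 lower (24.8%). The median interaction over all genes tested was -0.09. Larger values were mostly negative: 589 genes lay above 2 and 1371 below -2, and 41 lay above 4 against 389 below -4. The diet effect itself was called for 10004 genes (53.2%) in the libraries labelled *Stra6*-/-, of which 4596 rose (24.4%) and 5408 fell (28.8%). In WT it was called for 1652 genes (8.78%), of which 618 rose (3.29%) and 1034 fell (5.5%). With values scaled to equal library totals the WT calls split into 419 rises and 1209 falls. Of the 8319 genes, 6571 (79.0%) had a called diet effect in the libraries labelled *Stra6*-/- and none called in WT, and 229 (2.75%) the reverse. A further 744 (8.94%) had called effects of opposite sign, 459 with a fall in WT and a rise in the libraries labelled *Stra6*-/- and 285 the other way round. Called effects of the same sign were found for 299 (3.59%), and for 476 (5.72%) neither diet effect was called alone.

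These shares depended on VAD WT replicates 2 and 4. Without them the interaction was called for 10286 genes, and 7896 genes were called with the same sign both times, which is 94.9% of the 8319 and 76.8% of the 10286. The WT diet effect was then called for 7124 genes. Genes with called effects of opposite sign rose to 3489 (33.9% of those with an interaction), and those called in the libraries labelled *Stra6*-/- but not in WT fell to 4511 (43.9%). The plot of both diet effects places each gene by its effect in WT and in the libraries labelled *Stra6*-/-.

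**Figure D2:**
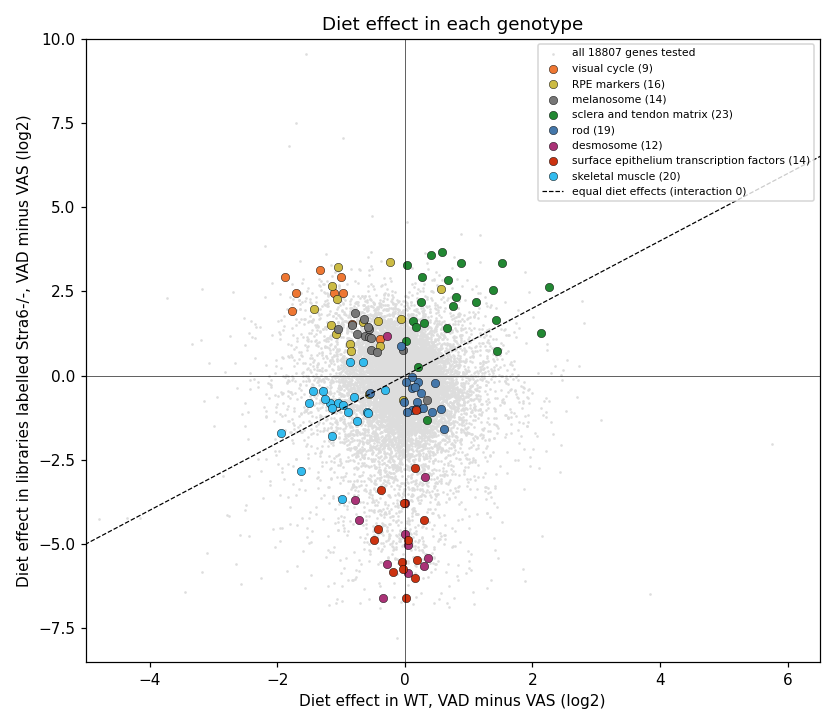
Diet effect (VAD minus VAS, log2) in WT on the horizontal axis and in the libraries labelled *Stra6*-/- on the vertical axis, for all 18807 genes tested in grey and for 8 gene lists in color; the dashed line marks equal effects, that is an interaction of 0. Visual cycle, RPE and melanosome genes lie mostly above the line with falls in WT by group mean. For the melanosome list only VAD WT replicates 1, 3 and 5 fell below the VAS WT sums, while replicates 2 and 4 lay above them. Surface epithelium transcription factors and desmosome genes lie mostly below the line. They are near 0 in WT as the mean of VAD WT libraries above (replicates 1, 3 and 5) and below (2 and 4) the VAS WT sums.

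Apart from the Y-linked genes, the visual cycle genes had the highest median interaction of the lists examined. All 9 were called higher, with a median of 3.69 against -0.09 for all genes. In WT all 9 fell on the VAD diet (median -1.11), and in the libraries labelled *Stra6*-/- all 9 rose (median 2.46). Their values were lowest in VAD WT and highest in the libraries labelled VAD *Stra6*-/-, and the summed value of the list was 21673 to 39558 and 343340 to 372347 in these groups. *Lrat* (chr3:82892579-82903973), which esterifies retinol, gave the largest value. It was at 1829.9, 1612, 1804, 1735 and 1975 in VAS WT and at 263, 821, 414, 941 and 317 in VAD WT. In VAS *Stra6*-/- it was at 2774, 2550.4, 2481, 2514 and 2484, and in the libraries labelled VAD *Stra6*-/- at 19902, 19917, 19838, 20082 and 18109. The diets did not overlap in either genotype, and within VAD WT replicates 2 and 4 were the highest. The interaction was 4.81 (standard error 0.33, adjusted p = 1.57e-10, limma), with a diet effect of -1.88 in WT and 2.93 in the libraries labelled *Stra6*-/-.

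*Rdh10* (chr1:16105774-16133734), a dehydrogenase that oxidizes retinol, was at 1270.3, 1217, 1439.5, 1458 and 1289 in VAS WT and at 235, 1181, 355, 1418 and 302 in VAD WT. Its values were 1733, 1779, 1732, 1747 and 1714 in VAS *Stra6*-/- and 15803, 15662, 14935, 15516 and 15395 in the libraries labelled VAD *Stra6*-/-. In WT the diets overlapped, because VAD WT replicate 4 reached the VAS range, replicate 2 lay just below it and replicates 1, 3 and 5 far below, and in the libraries labelled *Stra6*-/- they were far apart. The interaction was 4.47 (standard error 0.48, adjusted p = 1.08e-07, limma). *Rpe65*, the isomerase of the cycle, had an interaction of 3.93 (standard error 0.34, adjusted p = 6.17e-09, limma), and its mean was 5824 ± 144 (SD, n = 5) on the VAS diet and 44337 ± 1173 (SD, n = 5) on the VAD diet in the libraries labelled *Stra6*-/-. *Rgr*, an opsin of the RPE, gave 4.16, and *Rdh5*, which makes 11-cis-retinal, 3.69. *Rdh11* was the least changed member, at 1.48 (standard error 0.14, adjusted p = 1.79e-08, limma).

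The promoters of 4 genes from lists that moved nearly as a whole are shown so that the regulatory sequence beside these changes can be read. They were chosen, like the motifs, after the values had been seen, and run from 250 bases before to 50 after the start site on the gene's strand (RefSeq, GRCm38.p6). Capitals mark the match named for each gene. In *Rpe65* (chr3:159598931-159599230, plus strand) and *Rgr* (chr14:37048965-37049264, minus strand) they mark TAATCC, the core bound by OTX factors, which here stands at base -42 on the opposite strand and at base -167. In *Tyr*, which encodes tyrosinase (chr7:87493463-87493762, minus strand), they mark CATGTG, an E-box of the kind bound by MITF, at base -21. In *Krt12*, the keratin of the corneal epithelium (chr11:99422210-99422509, minus strand), they mark CCACACCC, a CACCC box, at base -101 on the opposite strand.
Rpe65: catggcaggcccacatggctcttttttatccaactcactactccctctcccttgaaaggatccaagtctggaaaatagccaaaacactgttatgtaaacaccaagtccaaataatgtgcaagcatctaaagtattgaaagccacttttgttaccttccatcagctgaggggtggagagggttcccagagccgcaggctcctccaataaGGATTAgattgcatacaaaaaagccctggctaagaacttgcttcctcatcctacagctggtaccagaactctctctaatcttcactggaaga
Rgr: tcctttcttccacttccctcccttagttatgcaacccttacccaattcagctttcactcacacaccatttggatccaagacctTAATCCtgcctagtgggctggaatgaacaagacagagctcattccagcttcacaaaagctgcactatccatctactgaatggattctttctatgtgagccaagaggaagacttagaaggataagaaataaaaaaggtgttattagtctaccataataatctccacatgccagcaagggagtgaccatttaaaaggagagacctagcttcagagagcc
Tyr: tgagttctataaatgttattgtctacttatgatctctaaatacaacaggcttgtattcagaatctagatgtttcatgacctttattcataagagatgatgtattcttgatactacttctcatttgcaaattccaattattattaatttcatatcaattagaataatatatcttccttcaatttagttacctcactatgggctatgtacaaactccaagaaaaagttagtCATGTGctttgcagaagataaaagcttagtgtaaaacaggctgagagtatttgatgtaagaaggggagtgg
Krt12: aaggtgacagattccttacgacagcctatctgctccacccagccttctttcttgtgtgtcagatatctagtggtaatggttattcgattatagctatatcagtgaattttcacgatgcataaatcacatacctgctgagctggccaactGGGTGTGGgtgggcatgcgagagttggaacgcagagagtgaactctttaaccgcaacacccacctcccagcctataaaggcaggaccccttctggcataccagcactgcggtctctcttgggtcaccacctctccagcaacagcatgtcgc
Among all 32851 promoter windows of the table, 7.06% held TAATCC, 14.2% CATGTG and 3.56% CCACACCC on either strand. The other motifs searched, also on both strands, were CACGTG (7.15% of windows), TGAGTCA (5.20%), AGGTCA (16.3%) and TATAAA (13.6%). A match says only that these letters stand in the window. Only 74.5% of the genes tested had a window, so motif shares were not compared between groups of genes.

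Genes of retinoid uptake moved mostly with the visual cycle. Of 9 tested, 6 were called higher and 1 lower, with a median of 1.85. Besides *Stra6* the largest were *Ttr*, the transthyretin that carries retinol-binding protein (3.39, standard error 0.20, adjusted p = 1.72e-11, limma), and *Lrp2*, the endocytic receptor megalin (2.90). *Rbp4* and *Stra6l* did not pass the test (0.16 and 0.45).

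Genes that make and break down retinoic acid were called in both directions. Of 11 tested, 3 were called higher and 3 lower (54.5% called, against 44.2% of all genes). The median was -0.33, and -0.68 without VAD WT replicates 2 and 4. The 3 lower ones were alcohol and aldehyde dehydrogenases: *Adh7* (-4.72, standard error 0.27, adjusted p = 9.67e-12, limma), *Aldh1a3* (-3.78) and *Adh1* (-3.57). *Adh7* was at 8183 to 8754 in VAS *Stra6*-/- and 369 to 453 in the libraries labelled VAD *Stra6*-/-, without overlap. *Cyp26a1*, which degrades retinoic acid and is itself a target of it, was called higher at 3.76 (standard error 0.77, adjusted p = 0.000423, limma). It was at 54.9, 42.8, 55.9, 55.7 and 21.5 in VAS *Stra6*-/- and 270.0, 289, 266, 254 and 189 in the libraries labelled VAD *Stra6*-/-. In WT it was at 236, 205, 172, 196 and 203 on VAS and 29.5, 276, 51.1, 369.7 and 24.7 on VAD, where replicates 2 and 4 again stood apart. *Aldh1a2* was called higher as well (0.90) and rose on the VAD diet in both genotypes, by 0.62 and 1.52. Of 6 receptor genes, *Rarg* (-2.64, standard error 0.20, adjusted p = 4.55e-10, limma), *Rxra* (-0.91) and *Rara* (-0.56) were called lower and *Rarb* higher (0.96), while *Rxrb* and *Rxrg* did not pass (-0.28 and 0.14).

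The RPE itself followed the visual cycle. Of 16 RPE markers, 14 were called higher and 1 lower, with a median of 2.14. In WT 10 fell and none rose on the VAD diet, and in the libraries labelled *Stra6*-/- 14 rose. *Enpp2* (chr15:54838901-54952892), which encodes the secreted lysophospholipase autotaxin, was at 4241, 3620.2, 4267, 3820.4 and 4502 in VAS WT and 1643, 2567, 1793, 2363 and 1646 in VAD WT. It was at 4018, 3697, 3874, 3581 and 3878 in VAS *Stra6*-/- and 35285, 35286, 36853, 35051 and 34369 in the libraries labelled VAD *Stra6*-/-. Neither genotype had overlapping diets, and the interaction was 4.27 (standard error 0.15, adjusted p = 3.48e-15, limma). *Slc6a20a*, a transporter of imino acids, followed at 3.80, then *Ermn* at 3.61 and *Slc16a8*, the lactate transporter of the RPE, at 3.42. *Efemp1*, a matrix protein, went against the list (-0.70, standard error 0.25, adjusted p = 0.0277, limma), and *Best1* stayed low in all groups (means of 23.6 and 34.2 in the groups labelled *Stra6*-/-) and did not pass (0.03). In bulk tissue fewer cells of a type and less RNA per cell cannot be told apart, here or for any list below.

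Melanosome genes, which serve pigment synthesis and storage, gave 13 called higher of 14, with a median of 1.88. *Tyr*, the rate-limiting enzyme of melanin synthesis, was the largest at 2.65 (standard error 0.35, adjusted p = 1.96e-06, limma), and *Gpr143*, a receptor of the melanosome membrane, stood at 2.42. *Tpcn2*, an ion channel of the organelle, was called lower (-1.08, standard error 0.24, adjusted p = 0.000955, limma). The summed melanosome value in VAD WT was 33625 to 36209 in replicates 1, 3 and 5 and 76567 to 77716 in replicates 2 and 4. In VAS WT it was 69948 to 75076, so that only replicates 1, 3 and 5 fell. Transporters and pumps of the RPE gave 9 higher and 1 lower of 12 (median 2.55). *Slco1c1*, a carrier of thyroid hormone, was the largest. It was at 308, 284, 359.9, 338 and 427 in VAS WT and 166, 167, 123, 185 and 130.0 in VAD WT, and VAS *Stra6*-/- gave 186, 234, 193, 234 and 249. The libraries labelled VAD *Stra6*-/- gave 2228, 2205, 2204, 2102 and 1879.6, far above every other library, and the interaction was 4.43 (standard error 0.18, adjusted p = 4.53e-14, limma). *Slc6a8*, the creatine transporter, was called lower (-0.74), and *Slc16a3* and *Atp1b2* did not pass (-0.95 and 0.37). The summed transporter value in VAD WT was 20807 to 21233 in replicates 1, 3 and 5 and 33756 to 35525 in replicates 2 and 4. In VAS WT it was 32059 to 35196.

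Other genes among the 10 named for their positive interactions, which needed a mean of at least 200 in 1 group, also rose in the libraries labelled *Stra6*-/-. *Trf* (chr9:103204001-103230444), which encodes the iron carrier transferrin, was at 34894, 35337, 37681, 34854 and 40744 in VAS WT and 8868, 18581, 8919, 18194 and 8375 in VAD WT. It was at 29014, 29671, 29211, 30095 and 30282 in VAS *Stra6*-/- and 311697, 309778, 313274, 301804 and 348847 in the libraries labelled VAD *Stra6*-/-. Every VAD WT library lay below every VAS WT library, every library labelled VAD *Stra6*-/- lay above all others, and the interaction was 5.06 (standard error 0.27, adjusted p = 2.44e-12, limma). *Adra2c*, an adrenergic receptor, gave 4.47 (standard error 0.39, adjusted p = 5.44e-09, limma), and *Mfsd7c*, a membrane transporter of the major facilitator family, 4.37 (standard error 0.33, adjusted p = 6.19e-10, limma). *Tmem56*, a membrane protein, gave 4.17, with a WT diet effect of -1.09 that did not pass (adjusted p = 0.059, limma). *Itgb8*, an integrin subunit, had an interaction of 4.85 (standard error 1.16, adjusted p = 0.00177, limma) on low WT values of 5.89, 96.8, 8.51, 102 and 0 in VAD WT. *Pcdhac2*, a clustered protocadherin on chromosome 18, had the largest value of the 10, 6.03 (standard error 1.95, adjusted p = 0.0153, limma), but it is uncertain. It shares exons with other transcripts of its cluster, some WT libraries were at 0 (VAD WT gave 0, 108, 0, 113 and 0), and DESeq2 on recovered reads did not call it (3.94, adjusted p = 0.0983). The interactions of these 10 genes stayed positive and called without VAD WT replicates 2 and 4.

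**Figure D3:**
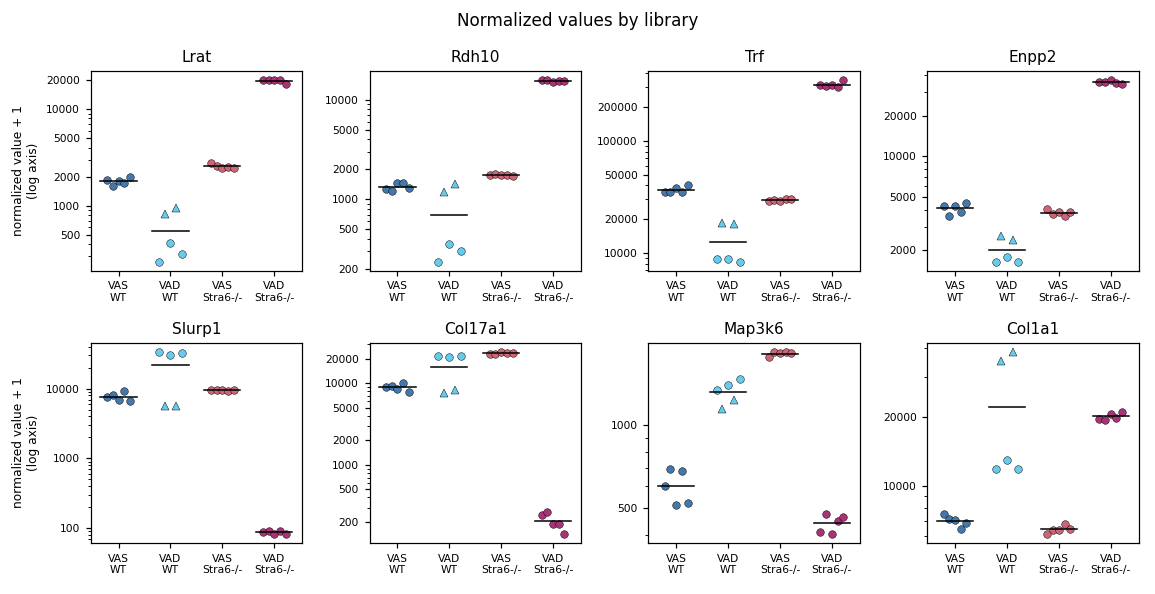
Normalized value plus 1 (log axis) of 8 genes in the 20 libraries, by group; points are libraries, triangles are VAD WT replicates 2 and 4, and bars are group means. *Lrat*, *Rdh10*, *Trf* and *Enpp2* were highest in the libraries labelled VAD *Stra6*-/-, *Slurp1* and *Col17a1* lowest there, *Map3k6* moved in opposite directions in the genotypes, and *Col1a1* rose in both.

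All 10 genes named for their negative interactions fell in the libraries labelled *Stra6*-/-, with log2 effects of -7.80 to -5.73, and none passed the test in WT with all 20 libraries. *Slurp1* (chr15:74724318-74728034), a secreted protein of the Ly6 family made by corneal epithelium, was at 7526, 8077, 6925, 9231 and 6646 in VAS WT and 33540.4, 5671, 30980.5, 5579.5 and 32951 in VAD WT. It was at 9448, 9469.6, 9602, 9255 and 9732 in VAS *Stra6*-/- and 85.6, 90.2, 81.9, 89.5 and 81.2 in the libraries labelled VAD *Stra6*-/-. VAD WT replicates 2 and 4 fell below and replicates 1, 3 and 5 above the VAS WT range, whereas the diets under the *Stra6*-/- label did not overlap. The interaction was -7.86 (standard error 0.55, adjusted p = 2.21e-10, limma). *Lypd2*, its neighbor on chromosome 15 and of the same family, gave -7.47 (standard error 0.58, adjusted p = 1.05e-09, limma), and the water channel gene *Aqp5* -7.37 (standard error 0.43, adjusted p = 1.08e-11, limma).

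*Col17a1* (chr19:47646344-47692094), the transmembrane collagen of hemidesmosomes, was at 8947, 9165, 8528, 10024 and 7778 in VAS WT and 21401, 7710.0, 20749, 8239.6 and 21599 in VAD WT. It was at 22981, 23205, 24139, 23697 and 23495 in VAS *Stra6*-/- and 242, 263, 185, 187 and 141 in the libraries labelled VAD *Stra6*-/-. The WT diets overlapped and the diets under the *Stra6*-/- label did not, with an interaction of -7.57 (standard error 0.35, adjusted p = 2.57e-13, limma). *Cnfn*, a component of the cornified envelope, gave -7.96 (standard error 1.11, adjusted p = 4.53e-06, limma), and *Cdsn*, which encodes corneodesmosin of the skin surface, -7.60 (standard error 0.60, adjusted p = 1.07e-09, limma). *Fam83a* and *Fam83b*, scaffold proteins of epithelial signaling, gave -7.41 and -7.67, *Fam25c* -7.59 and *Syt8*, a synaptotagmin, -7.20. *Cnfn*, *Cdsn*, *Fam83b*, *Fam25c* and *Syt8* were at 0 in at least 1 library labelled VAD *Stra6*-/- and at most 12.3 in all 5, so that their values on the log2(value + 1) scale depend on the added 1.

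The corneal epithelium list moved as a whole. All 8 genes were called lower, with a median of -5.80. Its summed value was 333477 to 438214 in VAS WT, 555165 to 580606 in VAS *Stra6*-/- and 17688 to 23343 in the libraries labelled VAD *Stra6*-/-. VAD WT replicates 1, 3 and 5 gave 847926 to 876244 and replicates 2 and 4 255128 to 259014. The list thus made up 1.59% to 4.64% of all values in the VAS and VAD WT and VAS *Stra6*-/- libraries, although the front of the eye had been removed, and 0.0997% to 0.126% in the libraries labelled VAD *Stra6*-/-. *Krt12* itself, which defines this epithelium, fell from 277635 ± 4370.0 (SD, n = 5) to 2851 ± 512 (SD, n = 5) in the libraries labelled *Stra6*-/- and gave -7.16 (standard error 0.43, adjusted p = 1.7e-11, limma). Without VAD WT replicates 2 and 4 all 8 genes also rose in WT and the median interaction was -6.50. The part of corneal or conjunctival tissue in the interactions of the other epithelial lists was not tested.

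All 14 transcription factors of surface epithelium were called lower (median -4.76), and none of the 14 passed in WT with all 20 libraries. The summed value of the list was 40067 to 41596 in VAD WT replicates 1, 3 and 5 and 19847 to 20620 in replicates 2 and 4, on either side of the 30145 to 34719 in VAS WT. With those 2 libraries left out 5 of the 14 rose in WT, and all 14 interactions were still called lower (median -5.22). *Grhl2*, which maintains epithelial junctions, was the largest at -6.62 (standard error 0.49, adjusted p = 5.27e-10, limma). Its values were 865, 876, 894, 809 and 848 in VAS *Stra6*-/- and 10.1, 2.71, 19.4, 7.02 and 6.76 in the libraries labelled VAD *Stra6*-/-. *Esrp2* and *Esrp1*, which regulate splicing in epithelia, followed with -6.18 and -5.73, and *Trp63*, the p63 factor of stratified epithelium, with -5.65. *Tfap2b* changed least (-1.20, standard error 0.17, adjusted p = 4.94e-06, limma). The cornified envelope list gave 9 lower and 1 higher of 14 (median -2.91). *Ppl* and *Evpl*, which encode periplakin and envoplakin, were among the lower (-5.61 and -5.31), and *S100a8*, an inflammatory calcium-binding protein, was the higher one (1.56, standard error 0.62, adjusted p = 0.048, limma). *Sprr1b* was at 91.5 to 113 in VAS *Stra6*-/- and at 0 in all other libraries but 1, which held 1 read. The summed cornified envelope value in VAD WT was 44770 to 47408 in replicates 1, 3 and 5 and 20749 to 21453 in replicates 2 and 4. In VAS WT it was 31260 to 36008.

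Keratins showed a second layout. Of 13, 11 had a lower and 2 a higher interaction (median -2.57), yet 10 of the 13 also fell in WT. *Krt5*, of the basal layer of stratified epithelium, was the largest of the lower ones (-5.31, standard error 0.37, adjusted p = 1.51e-10, limma) and did not pass in WT (0.15). *Krt4*, of mucosal epithelium, fell in both genotypes, by 1.89 in WT and 3.06 in the libraries labelled *Stra6*-/-, and *Krt19* fell by 1.70 and 3.53. The simple-epithelium partners *Krt8* (3.16, standard error 0.29, adjusted p = 9.38e-09, limma) and *Krt18* (2.72), which the RPE also makes, went against the list and fell in WT and rose in the libraries labelled *Stra6*-/-.

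Cell junction genes were called in both directions. In the desmosome, which anchors keratin filaments between cells, 11 of 12 genes were called lower (median -4.88). Their summed value in VAD WT was 125010 to 128860 in replicates 1, 3 and 5 and 58832 to 60453 in replicates 2 and 4, against 77540 to 91095 in VAS WT, and leaving out replicates 2 and 4 gave the same counts with a median of -5.22. *Dsg3*, a desmosomal cadherin, was the largest at -6.26 (standard error 0.18, adjusted p = 3.73e-16, limma), *Dsc3* stood at -5.96 and the plaque protein *Pkp1* at -5.91. *Pkp2*, the plakophilin found outside stratified epithelium, was called higher (1.45, standard error 0.24, adjusted p = 3.25e-05, limma). In the hemidesmosome 8 of 9 were called lower (median -3.86, and -4.25 without VAD WT replicates 2 and 4), led after *Col17a1* by the laminin chain gene *Lama3* (-5.08), and the tetraspanin gene *Cd151* was called higher (0.40).

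Tight junction genes split, with 13 lower and 7 higher of 21 (median -1.52). Lower claudins were *Cldn7* (-4.78, standard error 0.32, adjusted p = 8.11e-11, limma), *Cldn4* (-4.18) and *Cldn3* (-4.01). Higher ones were *Jam3* (2.93, standard error 0.19, adjusted p = 7.59e-11, limma), *Cldn2* (2.68), *Cldn1* (2.18) and *Cldn19* (1.59), the last also counted among the RPE markers. *Tjp1*, which encodes the scaffold ZO-1, was at 3064, 3007, 2669, 2753 and 2585 in VAS WT and 3303, 2389, 3373, 2391 and 3276 in VAD WT. It was at 4266, 4366, 4893, 4268 and 4633 in VAS *Stra6*-/- and 962, 1085, 1016, 1083 and 859 in the libraries labelled VAD *Stra6*-/-, with no overlap between the diets under the *Stra6*-/- label, and its interaction was -2.22 (standard error 0.14, adjusted p = 4.57e-11, limma). Among adherens junction genes the cadherins parted: *Cdh1* (E-cadherin) was lower at -2.27 (standard error 0.17, adjusted p = 7.84e-10, limma) and *Cdh3* (P-cadherin), the cadherin of the RPE, higher at 3.11 (standard error 0.29, adjusted p = 1.61e-08, limma). *Cdh2* was also higher (1.21), and *Cdh5* and *Ctnna1* did not pass (-0.09 and -0.19). The median of the 7 adherens genes was -0.09, and 0.41 without VAD WT replicates 2 and 4.

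Of 14 mucosal secretion genes tested, 10 were called lower and none higher. The median was -2.82, or -2.32 with 4 genes set to 3 reads where all libraries of a group had no more than that. *Olfm4*, a glycoprotein of mucosal glands, fell in both genotypes. It was at 278, 193, 289.9, 205 and 198 in VAS WT and 7.07, 42.2, 15.6, 39.4 and 16.9 in VAD WT, and at 283, 239, 266, 253 and 241 in VAS *Stra6*-/- and 10.1, 0, 20.5, 0 and 0 in the libraries labelled VAD *Stra6*-/-. The interaction was -2.98 (standard error 0.99, adjusted p = 0.0183, limma). *Ltf*, the antimicrobial lactoferrin, and *Muc1*, a membrane mucin, likewise fell in both (-3.10 and -5.26, and -2.06 and -4.54). *Muc4*, a membrane mucin of the ocular surface, had the largest interaction, -5.57 (standard error 0.26, adjusted p = 2.8e-13, limma).

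Genes with called diet effects of opposite sign were named by the smaller of the 2 effects. Besides *Lrat*, those that fell in WT and rose in the libraries labelled *Stra6*-/- were *Mfrp*, an RPE membrane protein (-1.81 and 1.91), *Tmem27* (-1.79 and 2.33) and the secreted Wnt antagonist *Sfrp5* (-1.77 and 2.14). Their interactions were 3.73 (standard error 0.53, adjusted p = 6.43e-06, limma), 4.12 and 3.91. *Mfrp* in VAD WT was at 189, 844, 133, 851 and 159.9, against 926 to 1229 in VAS WT, so that replicates 2 and 4 lay close to the VAS range and replicates 1, 3 and 5 far below it.

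The reverse layout, a rise in WT and a fall in the libraries labelled *Stra6*-/-, was named for *Map3k6* (chr4:133240818-133252929), a kinase of stress signaling. It was at 603, 692, 512, 680.0 and 521 in VAS WT and 1349.9, 1144, 1406, 1235 and 1477 in VAD WT. It was at 1768, 1843, 1831, 1847 and 1834 in VAS *Stra6*-/- and 410.1, 477, 402, 448 and 463 in the libraries labelled VAD *Stra6*-/-. The diets did not overlap in either genotype, the effects were 1.14 and -2.05, and the interaction was -3.19 (standard error 0.13, adjusted p = 3.04e-14, limma). *Cpne7*, a calcium-dependent membrane-binding protein, had effects of 1.59 and -1.75 and an interaction of -3.33 (standard error 0.36, adjusted p = 1.53e-07, limma). *Erdr1* had effects of 1.24 and -1.55, and in VAD WT its values were 5653, 2203, 6287, 2383 and 6059.7. Replicates 2 and 4, which were high in *Xist*, were the lower ones. *Tdg*, a DNA glycosylase of base excision repair, had an interaction of -3.86 (standard error 0.76, adjusted p = 0.000255, limma), on values that scattered widely in VAS WT (205, 33.6, 332, 176 and 25.9).

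Some interactions came from WT, with a diet effect under 0.25 in size in the libraries labelled *Stra6*-/-. *Slc15a2* (chr16:36750177-36784962), a peptide transporter, was at 827, 723, 969, 750.2 and 820.3 in VAS WT and 176, 272, 231, 223 and 260.0 in VAD WT. It was at 471, 537, 485, 416 and 426 in VAS *Stra6*-/- and 427, 416, 377, 460.0 and 426 in the libraries labelled VAD *Stra6*-/-. All 5 VAD WT libraries, replicates 2 and 4 included, lay below the VAS WT range, while the diets under the *Stra6*-/- label overlapped, and the interaction was 1.67 (standard error 0.16, adjusted p = 2.3e-08, limma). *Slc39a4*, a zinc importer, fell in WT by 1.52 with 0.22 in the libraries labelled *Stra6*-/-, and *Tnfsf10*, the death ligand TRAIL, by 1.31 with -0.12. In VAS *Stra6*-/- these 3 genes had means of 467, 853 and 271 against 818, 1147 and 434. Rises in WT alone were smaller: *Eva1a* gave a WT effect of 0.81 and an interaction of -0.99 (standard error 0.32, adjusted p = 0.015, limma), *Tmem132c* 0.80 and -0.91, and *Enpep*, an aminopeptidase, 0.77 and -0.79. *Egr2* and *Egr3*, early growth response factors named here after their values were seen, also had a called diet effect in WT alone. *Egr2* was at 77.6, 49.0, 73.9, 47.8 and 52.7 in VAS WT and 1.18, 13.4, 0, 41.9 and 13.0 in VAD WT, without overlap, and at 40.6 to 59.0 and 50.2 to 72.7 in the groups labelled *Stra6*-/-. Its interaction was 3.44 (standard error 0.93, adjusted p = 0.00482, limma), and that of *Egr3* 2.12.

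Called effects of the same sign in both genotypes were found for 571 genes (3.04%), against 1908 (10.1%) without VAD WT replicates 2 and 4 and 1418 (7.54%) with library weights. Of the 571, 198 had an interaction under 0.25 in size, 90 higher and 108 lower. *Nupr1* (chr7:126623249-126630861), a stress-responsive nuclear protein, rose in both. It was at 1032, 1060.0, 1170.1, 1262 and 1093 in VAS WT and 2625, 2019, 2339.7, 1816 and 2576 in VAD WT, and at 953, 846, 843, 785 and 962 in VAS *Stra6*-/- and 2025, 1999, 1835, 1980.3 and 1885 in the libraries labelled VAD *Stra6*-/-. The diets did not overlap in either genotype, and the interaction was 0.14 with a 95% interval of -0.13 to 0.42 (adjusted p = 0.403, limma). *Dpep1*, a membrane dipeptidase, rose by 1.39 and 1.61, with VAD WT replicates 2 and 4 at 1009 and 964 and replicates 1, 3 and 5 at 372 to 434. *Col1a1*, of type I collagen, rose by 1.44 and 1.64, but in VAD WT it was at 11869, 34989.9, 12984, 38362 and 11859, where replicates 2 and 4 were far above the others and all 5 lay above 6456 to 7508 in VAS WT. *Frk*, a tyrosine kinase of epithelia, fell by 1.17 and 1.39, with VAD WT replicates 2 and 4 at 167 and 145 and replicates 1, 3 and 5 at 304 to 402. The muscle genes *Tnnc2* and *Myl1* fell in both by group mean, but in WT only replicates 1, 3 and 5 fell. In VAD WT replicates 2 and 4 *Tnnc2* was at 1740 and 1499, within the VAS WT range of 1364 to 2092. *Myl1* was at 1191 and 1138 there, within 1068 to 1370. *Tnnc2* lost its WT call (limma, adjusted p of 0.0548 to 0.0576) when VAS WT replicate 5 or VAD WT replicate 1, 3 or 5 was left out.

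Photoreceptor transcripts, which mark retina rather than RPE, were called lower more often than higher. For cones 6 of 12 were called lower and 2 higher (median -0.47, or -0.26 with *Cnga3*, at or under 3 reads in a whole group, set to 3 reads). *Arr3*, the cone arrestin, was the largest. It was at 451, 389, 406, 470.2 and 512 in VAS WT and 565, 677, 546, 599 and 591 in VAD WT, and at 72.1, 81.2, 86.4, 92.9 and 71.2 in VAS *Stra6*-/- and 0, 5.41, 11.3, 5.27 and 0 in the libraries labelled VAD *Stra6*-/-. The *Stra6*-/- diets did not overlap, both lay below WT, and the interaction was -4.98 (standard error 0.70, adjusted p = 4.76e-06, limma). Since some libraries labelled VAD *Stra6*-/- were at 0, the size of this value depends on the added 1. *Pde6h* and the cone opsins *Opn1mw* and *Opn1sw* followed (-3.09, -2.96 and -2.39), while *Kcne2* and *Gnat2* were called higher (1.40 and 0.48). For rods 11 of 19 were called lower and 1 higher (median -0.79). *Reep6*, which serves rod membrane trafficking, was the largest (-2.18, standard error 0.17, adjusted p = 9.78e-10, limma), and *Slc24a1*, the rod sodium-calcium exchanger, was called higher (0.94). The summed rod value was 150932 to 155371 in VAD WT replicates 1, 3 and 5 and 388941 to 390370 in replicates 2 and 4. Without those 2 libraries 5 rod genes were called higher and 11 lower (median -0.33), and the median of 16 inner retina genes turned from -0.64 to 0.06.

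**Figure D4:**
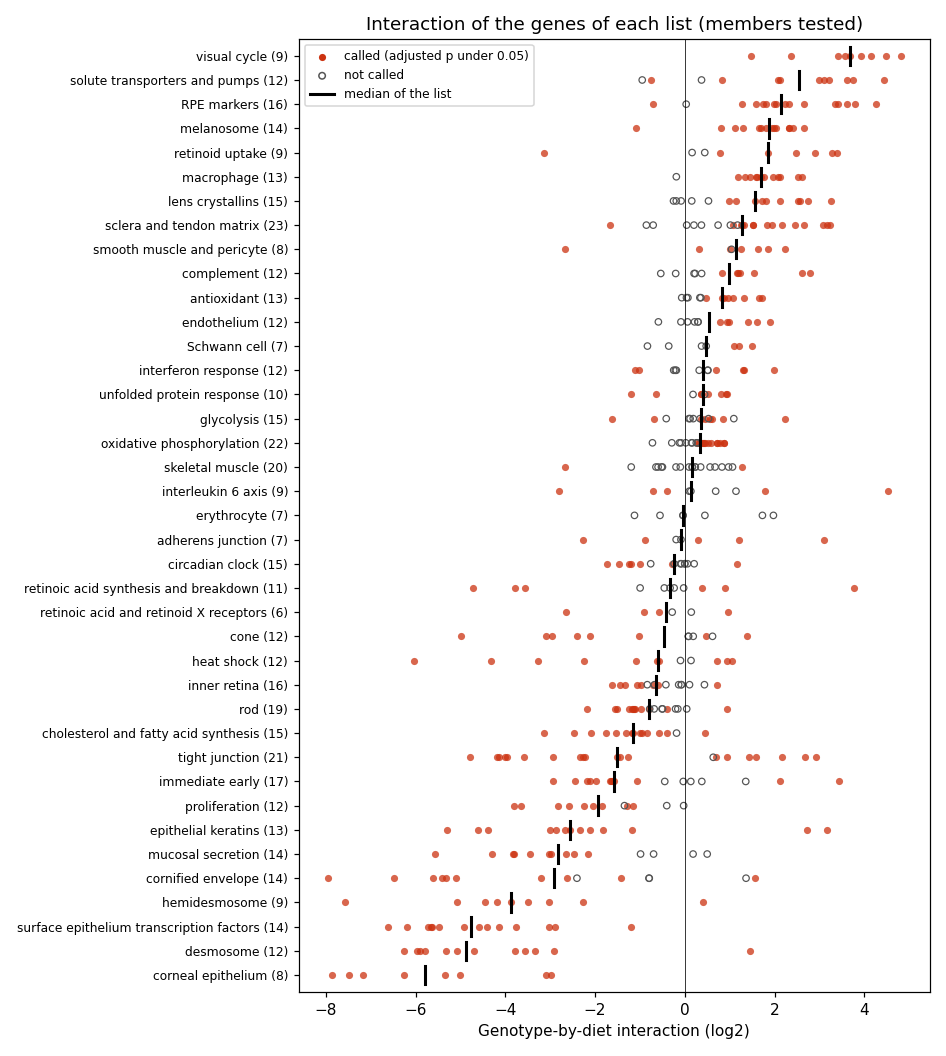
Genotype-by-diet interaction (log2) of each gene of 39 lists, ordered by the list's median; filled red points passed an adjusted p under 0.05, open points did not, and black bars are medians. The visual cycle list had a median of 3.69 and the corneal epithelium list one of -5.80.

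Stress genes did not move as 1 group. Of 17 immediate early genes, the first to respond when a cell is stimulated, 10 were called lower and 2, *Egr2* and *Egr3*, higher (median -1.58). *Fosl1* was the largest of the lower ones (-2.94, standard error 1.15, adjusted p = 0.0426, limma), and *Jun* and *Junb* gave -1.99 and -2.18. *Jun* was at 1578 to 1827 in VAS WT, 983 to 3231 in VAD WT, 6591 to 7356 in VAS *Stra6*-/- and 1529.8 to 1682 in the libraries labelled VAD *Stra6*-/-, so that every VAS *Stra6*-/- library lay above all others. Without VAD WT replicates 2 and 4 the list gave 7 higher and 9 lower (median -0.78). Among heat shock genes 7 of 12 were lower and 3 higher (median -0.59). *Hspa1b*, an inducible chaperone of the HSP70 family, was at 8843, 8151, 8130.4, 8967 and 7718 in VAS WT and 9979.6, 7502, 10664, 8341 and 10476 in VAD WT. It was at 45557, 42087, 43342, 43398 and 44525 in VAS *Stra6*-/- and 746, 778, 832, 686 and 706 in the libraries labelled VAD *Stra6*-/-, with an interaction of -6.03 (standard error 0.13, adjusted p = 1.83e-18, limma). Its near-identical copy *Hspa1a* gave -4.31, and how reads were split between the 2 is uncertain. The constitutive *Hspa8* was called higher (0.71), and so was *Hsp90aa1* (0.94).

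Genes of the unfolded protein response, which follow misfolded protein in the endoplasmic reticulum, were higher for 6 of 10 (median 0.41), led by the chaperone gene *Hspa5* (0.95, standard error 0.09, adjusted p = 2.82e-08, limma). *Atf4*, a transcription factor of the response (-1.19), and *Trib3*, a pseudokinase (-0.64), went against it. Antioxidant genes gave 8 higher and none lower of 13 (median 0.84, with 61.5% called against 44.2% of all genes). *Cat*, which encodes catalase, stood at 1.71 (standard error 0.14, adjusted p = 2.35e-09, limma) and the cystine carrier *Slc7a11* at 1.66.

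In the interleukin 6 axis 2 of 9 genes were called higher and 3 lower (55.6% called, against 44.2% of all genes). The ligand and its receptor parted. *Il6* was at 10.2, 14.3, 27.5, 4.22 and 0 in VAS *Stra6*-/- and 175, 227, 172, 179.9 and 149.7 in the libraries labelled VAD *Stra6*-/-, and at no more than 12.5 in any WT library, most of which were at 0. It gave 4.53 (standard error 1.18, adjusted p = 0.00335, limma). *Il6ra*, the receptor, was at 156, 161, 139, 153 and 163 in VAS *Stra6*-/- and 17.1, 54.1, 23.5, 53.5 and 30.4 in the libraries labelled VAD *Stra6*-/-, and gave -2.81 (standard error 0.51, adjusted p = 0.000113, limma). *Lif*, a related cytokine, was higher (1.79), and *Stat3* and *Lifr* were lower (-0.40 and -0.71). Complement genes gave 7 higher and none lower of 12 (58.3% called, median 0.99), among them *Cfd*, a protease of the alternative pathway (2.62, standard error 0.54, adjusted p = 0.00041, limma). The summed complement value in VAD WT was 11727 to 12472 in replicates 1, 3 and 5 and 20618 to 20634 in replicates 2 and 4. In VAS WT it was 12846 to 14388. Macrophage markers gave 12 higher of 13 (median 1.69), with *Lyz2*, of lysozyme, at 2.60 (standard error 0.29, adjusted p = 2.48e-07, limma) and the macrophage receptor *Adgre1* at 2.53. *Cd163* was the member not called (-0.19). Interferon response genes gave 4 higher and 2 lower of 12 (50% called, near the 44.2% of all genes), from *Irf7* at -1.11 to *Rsad2* at 1.99. When VAD WT replicates 2 and 4 were left out the interferon list gave 4 higher and 5 lower, and the interleukin 6 list 4 higher and 2 lower in place of 2 and 3.

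Sclera and tendon matrix genes gave 14 higher and 1 lower of 23 (median 1.28). *Matn3* (3.24, standard error 0.58, adjusted p = 8.95e-05, limma), *Chad* (3.18) and *Tnmd* (3.08), all of cartilage or tendon matrix, were the largest, and *Col2a1* was lower (-1.66). The list's summed value was 57869 to 59900 in VAS *Stra6*-/- and 279794 to 290314 in the libraries labelled VAD *Stra6*-/-. The VAD WT sum was 64383 to 67954 in replicates 1, 3 and 5 and 215919 to 220111 in replicates 2 and 4, against 59124 to 62340 in VAS WT. Without replicates 2 and 4 the median WT effect of the list was -0.02 instead of 0.67, and 19 genes were called higher and 2 lower in the interaction.

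Skeletal muscle genes fell on the VAD diet in both genotypes and had little interaction, with 13 called lower in WT and 12 in the libraries labelled *Stra6*-/- of 20, and 1 called in each direction for the interaction. The median interaction was 0.17. *Myh3*, an embryonic myosin, was the lower (-2.66, standard error 0.16, adjusted p = 1.67e-11, limma) and *Casq1*, a calcium store protein, the higher (1.27). This depended on VAD WT replicates 2 and 4: their summed muscle value was 19116 to 20274 against 5660 to 5956 in replicates 1, 3 and 5, and without them 13 were called higher and the median was 0.89. Of the 39 lists plotted, the erythrocyte list moved most, from -0.04 with none of 7 called to 1.75 with 6 called higher. *Hbb-bt* and *Hbb-b2* carry identical values in every library, and the globin paralogs share reads, so that their single values are uncertain.

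**Figure D5:**
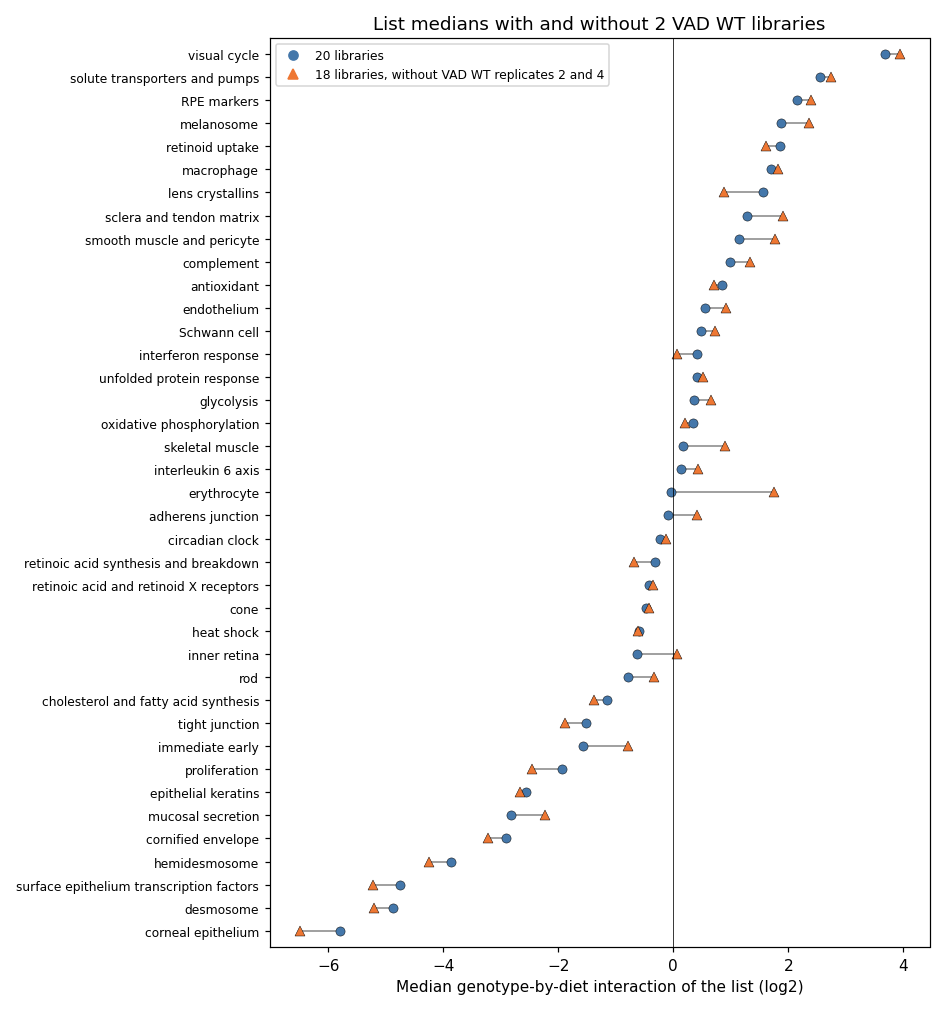
Median genotype-by-diet interaction (log2) of 39 gene lists in all 20 libraries (circles) and without VAD WT replicates 2 and 4 (triangles). The erythrocyte list moved from -0.04 to 1.75, and the visual cycle list from 3.69 to 3.93.

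Vessel and smooth muscle lists had moderately positive medians. Endothelium gave 6 higher and none lower of 12 (median 0.55), with 50% called, near the 44.2% of all genes. The growth factor receptor gene *Kdr* stood at 1.90 (standard error 0.53, adjusted p = 0.00598, limma) and *Vwf* was not called (-0.59). Smooth muscle and pericyte genes gave 6 of 8 higher (median 1.15), led by *Acta2* (2.24), and *Notch3* against them (-2.67, standard error 0.12, adjusted p = 2.34e-13, limma). Without VAD WT replicates 2 and 4, 11 endothelial genes were called higher (median 0.91) and 7 of smooth muscle (median 1.76). Cell cycle genes were lower. Of 12 proliferation genes 9 were called lower and none higher (median -1.94), and 11 were called lower with VAD WT replicates 2 and 4 left out (median -2.47). *Ccnb1*, the mitotic cyclin B1, was at 204, 165, 182, 198 and 204 in VAS *Stra6*-/- and 26.2, 17.1, 16.4, 2.63 and 4.23 in the libraries labelled VAD *Stra6*-/-. It was at 199 to 274 in VAS WT and 80.5 to 422 in VAD WT, and gave -3.82 (standard error 0.70, adjusted p = 0.000135, limma). Cholesterol and fatty acid synthesis genes gave 13 lower and 1 higher of 15 (median -1.16). Among the lower ones was *Lss*, which forms lanosterol (-2.10, standard error 0.17, adjusted p = 2.06e-09, limma), and *Scd1*, which desaturates fatty acids, was the higher one (0.45).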

How the data were processed

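RNA of RPE-choroid was sequenced in 20 libraries, each from the 2 pooled eyecups of a single mouse by the study's account. According to the study's methods the authors aligned reads with STAR 2.5.3a to GRCm38, estimated gene counts with RSEM 1.2.30 and divided them by DESeq2 size factors. The submitters' processing notes name DESeq2 1.32.0. The deposited values are therefore a signal per gene, not corrected for length, that is comparable between libraries but not between genes. Low values were whole multiples of 1 step in 19 libraries, from which whole reads were recovered (tolerance 0.01 reads). For VAD *Stra6*-/- replicate 1 the step was 1.01 and recovery is not claimed. Depth was 13331903 to 21878614 reads (median 17785927), which limits the precision of low genes. Nothing says that the libraries of a group came from separate litters or batches, and p-values measure only the spread between these libraries.

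Genes entered the fit if their recovered reads summed to 5 or more over all libraries. Limma 3.58.1 in R 4.3.3 was fitted to log2(value + 1) with 4 group means and a mean-variance trend, and p-values were adjusted by Benjamini-Hochberg over 18807 genes, with a threshold of 0.05. The test is two-sided. The added 1 understates changes of low genes. On simulated data with the same layout of groups the fit recovered 85 of 100 genes changed by 1 on the log2 scale. It recovered 99 of 100 changed by 2, with 6 false calls among 18807 genes. The simulation gave every gene the same dispersion in all groups and changed few genes. In the real data the median SD within a group was 0.31 in VAD WT and 0.10 to 0.14 in the others (log2 scale, 12299 genes). The recovery and false calls therefore do not describe the fit to these libraries. The fit pooled the spread of all 4 groups for each gene. Where VAD WT scattered more, standard errors of WT diet effects were too small for that spread, and those under the *Stra6*-/- label too large. P-values of interactions, which take in all 4 groups, are approximate for such genes. With library weights 9982 interactions were called in place of 8319. Alternatives were edgeR 4.0.16 and DESeq2 1.42.0 on recovered reads of 19 libraries, other scalings, pseudocounts and filters, library weights, a threshold on the size of the effect, a replicate block and each library left out. Named genes, besides *Stra6* and the leading or opposing members of each list, needed a mean of at least 200 in 1 group. Only the 5 genes of the sex-linked list and provisional symbols were left out. The named genes were the 10 largest called interactions in each direction whose diets did not overlap in the genotype with the larger effect, the 4 largest per direction with opposite diet effects, the 3 with a called WT effect and one under 0.25 in the libraries labelled *Stra6*-/-, and the 3 with shared effects and an interaction under 0.25. The gene lists and members were chosen with earlier results of these data known. Gene positions are from GENCODE vM21, matched by symbol (23322 genes), and promoters from RefSeq. Flg, Muc16 and Ca4 were not analysed here. For 4 list members no individual value is reported here.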

Additional observations from a re-analysis of the deposited data

Results flagged for a closer look

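The count of 8319 genes whose diet effect differed between the genotypes, tested by the interaction term of limma, is itself what a closer look starts from. The rule for named genes asked for a mean of at least 200 in 1 group and left out sex-linked genes. The largest positive interactions under it were those of *Pcdhac2* (6.03), *Trf* (5.06), *Itgb8* (4.85), *Lrat* (4.81), *Rdh10* (4.47), *Adra2c* (4.47), *Slco1c1* (4.43), *Mfsd7c* (4.37), *Enpp2* (4.27) and *Tmem56* (4.17) on the log2 scale, with *Stra6* itself at 3.27. The largest negative ones under the same rule were those of *Cnfn* (-7.96), *Slurp1* (-7.86), *Fam83b* (-7.67), *Cdsn* (-7.60), *Fam25c* (-7.59), *Col17a1* (-7.57), *Lypd2* (-7.47), *Fam83a* (-7.41), *Aqp5* (-7.37) and *Syt8* (-7.20). Genes whose diet effects had opposite signs included *Mfrp* (3.73), *Tmem27* (4.12) and *Sfrp5* (3.91) on the positive side. On the negative side they included *Tdg* (-3.86), *Cpne7* (-3.33), *Erdr1* (-2.79) and *Map3k6* (-3.19). Genes with a called effect in WT alone were *Eva1a* (-0.99), *Tmem132c* (-0.91), *Enpep* (-0.79), *Slc15a2* (1.67), *Slc39a4* (1.74) and *Tnfsf10* (1.19).

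Single libraries stood far from the other 4 of their group, by Dixon's test on normalized values, in 12 of 160 groups of 5 examined, where chance gives about 1 in 20. In VAS *Stra6*-/- these were replicate 3 for *Pcdhac2* (4.07) and *Tmem27* (1471), replicate 1 for *Lrat* (2774) and *Map3k6* (1768), and replicate 2 for *Tmem132c* (181). In the libraries labelled VAD *Stra6*-/- they were replicate 5 for *Trf* (348847) and *Lrat* (18109), replicate 2 for *Fam83b* (4.51), replicate 3 for *Fam25c* (8.19) and replicate 4 for *Fam83a* (72.9). In VAS WT they were replicate 3 for *Itgb8* (48.6) and replicate 4 for *Aqp5* (32164). No VAD WT value was flagged. The test looks for 1 outlying value in a group, so it cannot flag replicates 2 and 4 of VAD WT where they stood apart together.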

How the results depend on the processing

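The interaction count stayed between 7904 and 8852 when 1 library was left out, with 3467 to 3978 genes higher and 4434 to 4881 lower. EdgeR on recovered reads gave 3301 higher and 4646 lower and DESeq2 3494 and 4778. Scaling to equal library totals moved the split to 4007 higher and 4169 lower, and the share of higher calls from 44.0% to 49.0%. Testing for effects beyond a log2 of 1 left 1820 interactions (592 higher, 1228 lower, a share of 32.5% higher), 18 WT effects (1 higher, 17 lower) and 2099 effects in the libraries labelled *Stra6*-/- (552 higher, 1547 lower). The WT diet effect was the least stable count. It was 1260 to 2651 genes with 1 library left out, with 443 to 1180 higher. It was 2445 (1061 higher) without VAD WT replicate 2 and 2651 (1180 higher) without VAD WT replicate 4. It was 5131 (2322 higher, 2809 lower) with library weights, which gave these libraries 0.107 and 0.101, and 7124 (3306 higher, 3818 lower) without both. DESeq2 gave 1059 WT genes higher. Why these libraries stood apart was not tested. Replicate numbers did not pair the samples, since 30 correlations of same-numbered libraries ran from -0.134 to 0.0948, and a replicate block gave 8193 interactions (3613 higher, 4580 lower). Of the tests of named genes, 503 of 506 kept direction and call under other settings, 916 of 920 with 1 library left out and 46 of 46 without VAD WT replicates 2 and 4. The exceptions were *Pcdhac2* with DESeq2 and *Tnnc2* in WT. For genes with shared effects these tests covered the 2 diet effects and not their small interactions. Most other named genes had been chosen as the largest calls in these data, so that a kept call was likely from the start. Medians of 24 of 40 lists moved without those 2 libraries. The low reads of some epithelial and cone genes limit the size of their values.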

Other observations

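Lens transcripts were present although the front of the eye had been removed, and 10 of 15 lens genes were called higher and none lower (median 1.55, and 0.88 without VAD WT replicates 2 and 4). *Lim2*, a membrane protein of lens fibers, was the largest (3.25, standard error 0.51, adjusted p = 1.84e-05, limma). Among glycolysis genes 6 of 15 were called higher and 2 lower (median 0.36, with 53.3% called against 44.2% of all genes). The subunits of lactate dehydrogenase parted, with *Ldhb* at 2.23 (standard error 0.23, adjusted p = 5.9e-08, limma) and *Ldha* at -0.69 (standard error 0.09, adjusted p = 1.19e-06, limma). Of 22 genes of oxidative phosphorylation 13 were called higher and none lower (median 0.35, with 59.1% called). Without VAD WT replicates 2 and 4 the oxidative phosphorylation list gave 10 higher and 5 lower, and the glycolysis list 12 and 2.

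Of the genes of the circadian system 1 was called higher and 6 lower of 15 (46.7% called, against 44.2% of all genes), with *Hlf* at -1.74 (standard error 0.14, adjusted p = 1.77e-09, limma), *Per2* at -1.47 and *Bhlhe41* at 1.17. Of 7 Schwann cell genes 3 were called higher and none lower (42.9% called), led by *Pmp22* (1.51, standard error 0.23, adjusted p = 1.38e-05, limma). Without VAD WT replicates 2 and 4 these lists gave 3 higher and 5 lower, and 4 higher and 1 lower. The share of genes with a called interaction was 8.95% at a mean value under 10 and 67.7% above 1000. On the X chromosome 38.5% of genes were called, with a median of 0.0967.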
